A study of Mus musculus with 6 samples.

Results

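The enzymes that remove superoxide and peroxides were examined in soleus (Sol) muscle of mice after voluntary wheel running (VWR). The group was set by name and held 10 genes of the 24411 in the count table: the superoxide dismutases Sod1, Sod2 and Sod3, catalase (Cat), the glutathione peroxidases Gpx1, Gpx3 and Gpx4, the peroxiredoxins Prdx3 and Prdx5, and the mitochondrial thioredoxin Txn2. All 10 passed the filter on low counts and were among the 12828 genes tested. In LSD1-mKO Sol, 0 of the 10 transcripts passed the test of a difference from WT, and the fitted differences ran from 0.833-fold for Gpx3 to 1.13-fold for Cat. For 9 of the 10 genes the 95% interval of the fold difference lay within 1.5-fold in either direction.

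Poly(A) RNA was sequenced from Sol of 3 WT and 3 LSD1-mKO male mice on a C57BL/6 background, 1 library for each mouse. The series holds no sedentary mice. LSD1-mKO mice carried Lsd1 flox/flox and a CreERT2 recombinase driven by the human ACTA1 promoter, which is active in differentiating and differentiated muscle cells, so that the demethylase LSD1 was removed from muscle fibers while other cells of the whole muscle kept the gene. WT mice were Lsd1-floxed without the recombinase, and both genotypes received tamoxifen at 75 mg/kg for 5 days. The mice were 8 weeks old at the start, had 3 days to get used to the wheel, and had access to it for 38 days.

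Superoxide is formed where electrons leak from the respiratory chain and by oxidases in membranes and the cytosol. Superoxide dismutases turn it into hydrogen peroxide, which catalase, glutathione peroxidases and peroxiredoxins then remove. Glutathione peroxidases draw on glutathione for this, and peroxiredoxins on thioredoxin. Sol is a slow, oxidative muscle rich in mitochondria, and these enzymes are spread over its compartments: Sod2, Prdx3, Prdx5 and Txn2 act in mitochondria, Cat in peroxisomes, Sod1, Gpx1 and Gpx4 largely in the cytosol, and Sod3 and Gpx3 outside the cell.

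The libraries held 8940206 to 13798059 estimated counts, and the 10 genes together took 0.198% to 0.214% of them. The lowest single value among the members was 199 estimated counts, for Sod3 in WT replicate 1, and the highest was 5303, for Gpx4 in LSD1-mKO replicate 2. Kdm1a encodes LSD1 and served as the check of genotype. On the scale of counts per 1000000 after TMM normalization (CPM), the WT mice had 33.6 to 40.5 and the LSD1-mKO mice 14.6 to 16.6, for a log2 fold change of -1.23 (adjusted p = 0.0160, edgeR's quasi-likelihood test with Benjamini-Hochberg adjustment). The gene body of Kdm1a shares 4241 bases with Luzp1 on the opposite strand and 489 with the pseudogene Gm12987 on its own strand. How reads in these stretches were assigned is not stated. All 7 skeletal muscle markers and all 7 slow fiber markers were detected, with Myh7 at 11233 to 15151 CPM. The fibroblast markers varied between mice: their sum over 6 genes ran from 1329 to 4395 CPM in WT and from 1361 to 2801 CPM in LSD1-mKO. None of the 6 was at 0, 0 of 6 were fitted higher in LSD1-mKO, and their median log2 fold change was -0.73 with 0 at an unadjusted p under 0.05 (edgeR).

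Start-site sequences are shown for the 4 mitochondrial enzymes and Cat. This set was chosen after the levels were seen, because its members shared the same 3 highest mice in CPM. Prdx3 and Cat did not share them in TPM, the measure per transcript length given below. Each sequence is the 250 bases before a RefSeq start site (GRCm38.p6), read 5′ to 3′ on the gene's strand. Capitals mark exact matches, on either strand, to the estrogen-related receptor (ERR) element TCAAGGTCA, the nuclear receptor half-site AGGTCA, the core of the antioxidant response element TGACNNNGC, or the GC box GGGCGG, which the factor Sp1 binds. The half-site is the end of the ERR element, so the motifs can overlap. The windows were chr17:13007589-13007838 (plus strand) for Sod2, chr19:60874539-60874788 (minus strand) for Prdx3, chr19:6910107-6910356 (minus strand) for Prdx5, chr15:77928995-77929244 (minus strand) for Txn2 and chr2:103485154-103485403 (minus strand) for Cat.
Sod2: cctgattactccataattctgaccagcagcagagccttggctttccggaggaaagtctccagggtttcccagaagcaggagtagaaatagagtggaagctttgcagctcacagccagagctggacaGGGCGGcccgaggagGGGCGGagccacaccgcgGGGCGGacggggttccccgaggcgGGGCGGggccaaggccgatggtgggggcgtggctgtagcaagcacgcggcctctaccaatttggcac
Prdx3: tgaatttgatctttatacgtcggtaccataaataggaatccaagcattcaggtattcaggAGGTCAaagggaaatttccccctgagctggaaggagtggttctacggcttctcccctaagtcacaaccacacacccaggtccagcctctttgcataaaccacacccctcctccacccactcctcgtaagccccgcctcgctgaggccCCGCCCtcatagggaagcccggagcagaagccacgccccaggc
Prdx5: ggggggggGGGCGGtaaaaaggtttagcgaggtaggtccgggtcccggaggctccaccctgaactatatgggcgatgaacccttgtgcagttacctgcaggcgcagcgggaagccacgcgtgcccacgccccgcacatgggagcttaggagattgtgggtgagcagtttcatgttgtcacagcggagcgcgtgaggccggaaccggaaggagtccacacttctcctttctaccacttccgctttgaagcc
Txn2: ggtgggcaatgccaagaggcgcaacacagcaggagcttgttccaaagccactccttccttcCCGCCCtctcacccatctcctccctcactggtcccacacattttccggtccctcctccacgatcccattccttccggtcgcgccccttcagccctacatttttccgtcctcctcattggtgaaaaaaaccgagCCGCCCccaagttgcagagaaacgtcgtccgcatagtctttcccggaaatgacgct
Cat: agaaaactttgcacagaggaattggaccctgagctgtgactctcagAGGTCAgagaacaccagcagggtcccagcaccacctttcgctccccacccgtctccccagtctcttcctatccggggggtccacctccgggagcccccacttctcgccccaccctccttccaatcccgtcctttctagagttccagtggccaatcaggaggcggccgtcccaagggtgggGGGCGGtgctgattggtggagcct

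Sod2 carried 4 GC boxes and neither of the receptor motifs, Prdx3 and Cat carried 1 half-site and 1 GC box each, Txn2 carried 2 GC boxes, and Prdx5 carried 1. RefSeq start sites were matched for 9 of the 10 genes, with 12 start sites in all. A GC box was present for 8 of these 9 genes and in 10 of their 12 windows, beside 32.7% of all 32851 promoter windows of the same length. That background counts windows and not genes, and it was not matched for GC content. Gpx4 gave 4 of the 12 windows, and 2 of these overlap and hold the same GC boxes. The half-site was present for 3 genes (Cat, Prdx3 and Gpx4) and in 3 of the 12 windows, beside 14% of all windows. The antioxidant response element core was found for Sod1 alone, in 1 of the 12 windows, beside 10.2% of all windows. The ERR element was found for 0 genes and in 0.387% of all windows.

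Per transcript length, the 10 genes spanned a wide range, given here as TPM (transcripts per 1000000) on the longest coding transcript. Gpx4, which reduces lipid hydroperoxides in membranes, had the highest level at 815 TPM over the 6 mice, followed by Sod1, the cytosolic copper and zinc dismutase, at 589 TPM. Then came Prdx3 at 334, Prdx5 at 282, Cat at 275, Txn2 at 225, Gpx3 at 209, Gpx1 at 138 and Sod2 at 130 TPM. Sod3, the dismutase bound to the extracellular matrix, was lowest at 20.5 TPM, and the ratio of the highest to the lowest level was 39.7.

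**Figure D1:**
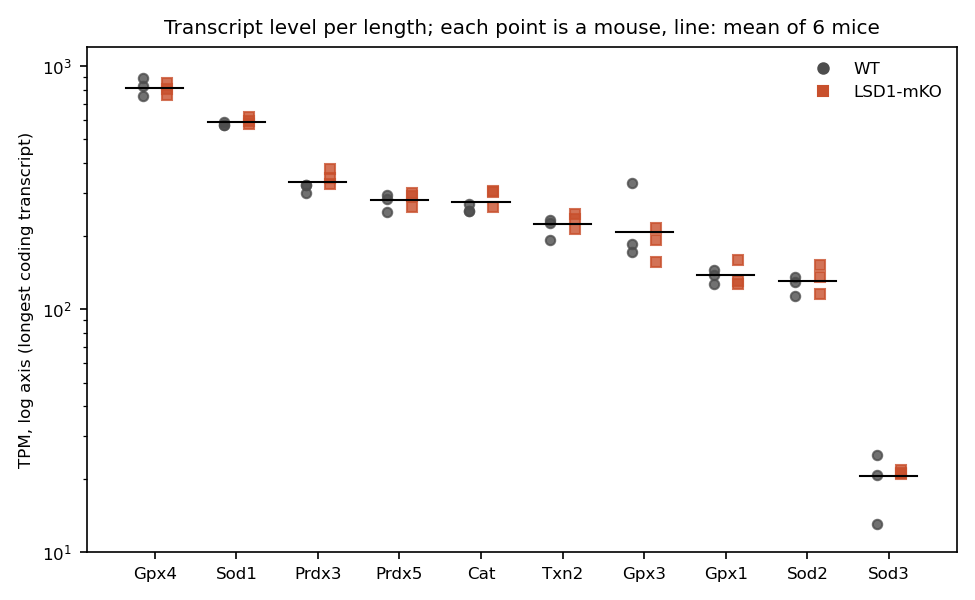
Level per transcript length (TPM, log axis) of the 10 enzymes in each WT mouse (circles) and each LSD1-mKO mouse (squares), with the mean of the 6 mice as a line. Gpx4 at 815 TPM and Sod1 at 589 TPM stand above the rest, and Sod3 at 20.5 TPM stands below in every mouse.

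Most neighbours in this order kept their places in every mouse. Gpx4 was above Sod1, Sod1 above Prdx3, Prdx3 above Prdx5, Cat above Txn2, Gpx3 above Gpx1 and Sod2 above Sod3 in 6 of 6 mice. Prdx5 exceeded Cat in 3 of 6 mice, Txn2 exceeded Gpx3 in 4 of 6 and Gpx1 exceeded Sod2 in 3 of 6, so these neighbours did not differ beyond the spread. With the median in place of the longest transcript length, Gpx4, Sod1 and Sod3 kept their places, at 540, 376 and 13.1 TPM, but Prdx3 moved from the third to the seventh place at 213 TPM and came below Prdx5, Txn2, Cat and Gpx3. At the median length Prdx5 was above Txn2 and Txn2 above Cat in 6 of 6 mice each, and Sod2 was above Gpx1 in 5 of 6. The order within these pairs thus depended on the length used. Among 18661 genes ranked by mean TPM on the longest length, Gpx4 was at rank 172 and Sod1 at 254, whereas Sod2 was at 1008 and Sod3 at 4857.

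The genotypes were compared on CPM, with edgeR across all genes and an exact permutation test of each gene over the mice, which with 3 against 3 cannot go below p = 0.1. Of the 10 genes, 0 passed an adjusted p of 0.05, against 2 of 12828 genes tested (0.0156%), and DESeq2 called 0 of the 10 against 0.327% of all genes. At an unadjusted p under 0.05 the count was also 0 of 10 in edgeR, DESeq2 and limma voom, against 6.4%, 4.5% and 6.31% of all genes tested. The WT and LSD1-mKO values in CPM overlapped for all 10 genes, whereas 12.7% of all genes tested had groups that did not overlap. In TPM, which lacks the TMM scaling, the groups of Prdx3 were narrowly separate, at 301.7 to 325.5 in WT and 326.6 to 377.7 in LSD1-mKO. The share of all genes with separate groups in TPM was not computed, so no difference of Prdx3 is read from this. The fitted level was higher in LSD1-mKO for 8 of the 10 genes, and for 45.2% of all genes tested. Their median log2 fold change was 0.07, beside -0.02 over all genes, and 0.15 without WT replicate 1. The median standard error was 0.11 for the 10 genes and 0.14 for all genes.

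**Figure D2:**
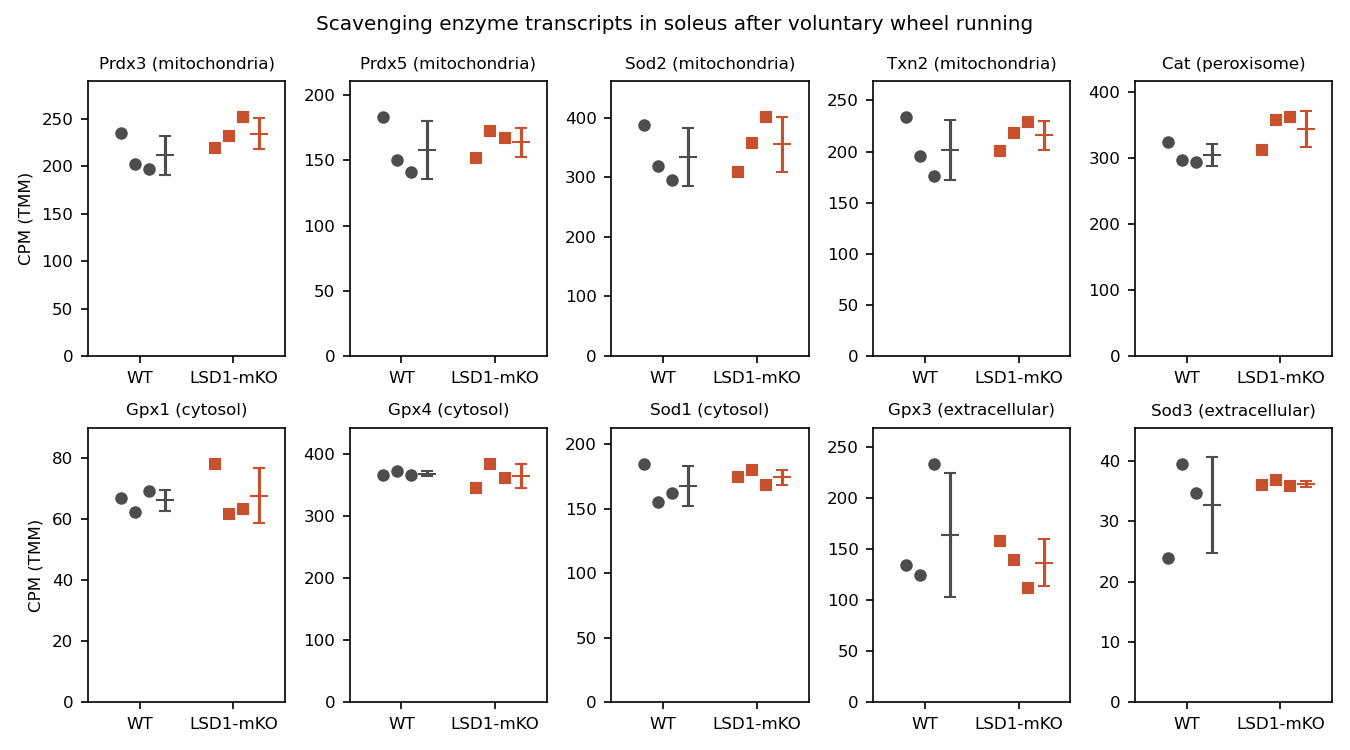
CPM (TMM-normalized, axes from 0) of each enzyme in the 3 WT mice (circles) and the 3 LSD1-mKO mice (squares), replicates 1 to 3 from left to right, with the mean and SD of each genotype beside the points. The points of the genotypes overlap for all 10 genes, and the widest spread is that of Gpx3 in WT.

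In CPM the mitochondrial enzymes ran in parallel from mouse to mouse, across both genotypes, a pattern not particular to them. Sod2, the manganese dismutase of the mitochondrial matrix (chromosome 17 of GRCm38, 13006846 to 13040063, plus strand), was at 389, 319 and 295 CPM in WT replicates 1 to 3 and at 309, 359 and 401 CPM in LSD1-mKO replicates 1 to 3. WT replicate 1 thus lay with the higher LSD1-mKO mice and LSD1-mKO replicate 1 with the lower WT mice. The means were 334 ± 48.5 and 356 ± 46.2 CPM (SD, n = 3 each), with a log2 fold change of 0.09 ± 0.14 (SE), a 95% interval of -0.22 to 0.40 and an adjusted p of 0.917 (edgeR), and p = 0.6 in the exact permutation test.

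Prdx3, the main peroxiredoxin of the matrix, came next after Cat in the size of its positive fitted difference. Its levels (chromosome 19, 60864051 to 60874556, minus strand) were 235, 202 and 198 CPM in WT and 220.03, 232 and 252 CPM in LSD1-mKO. In CPM only WT replicate 1 lay within the LSD1-mKO range. In TPM the lowest LSD1-mKO mouse, at 326.6, was just above the highest WT mouse, at 325.5. The means of 212 ± 20.5 and 235 ± 16.1 CPM gave a log2 fold change of 0.15 ± 0.10 with a 95% interval of -0.08 to 0.38 and an adjusted p of 0.798 in edgeR. Txn2, the thioredoxin that returns Prdx3 to its reduced form (chromosome 15, 77915047 to 77929006, minus strand), was at 234, 195 and 176 CPM in WT and at 200.5, 218 and 229 CPM in LSD1-mKO. Here too WT replicate 1 was high in CPM, above all LSD1-mKO mice, but in TPM LSD1-mKO replicates 2 and 3 exceeded it. The log2 fold change of Txn2 was 0.10 ± 0.12, with a 95% interval of -0.17 to 0.37 and an adjusted p of 0.892 (edgeR).

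Prdx5, a peroxiredoxin found in mitochondria and also in peroxisomes and cytosol (chromosome 19, 6906697 to 6910106, minus strand), was at 183, 150.4 and 141 CPM in WT and at 152, 172 and 167 CPM in LSD1-mKO. The WT values enclosed the LSD1-mKO values, and the log2 fold change was 0.05 ± 0.11 (adjusted p = 0.945, edgeR). Its gene body shares 409 bases with Trmt112 on the opposite strand, which was at 38.8 to 48.6 CPM, and since the strand used in counting is not stated, reads in this stretch cannot be assigned to either gene.

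In CPM, the 3 highest mice in each of these 4 genes were WT replicate 1 and LSD1-mKO replicates 2 and 3. The 3 lowest were WT replicates 2 and 3 and LSD1-mKO replicate 1. This order depended in part on the scale, as the TMM factor was lowest in WT replicate 1, at 0.929. In TPM, Sod2, Prdx5 and Txn2 kept the same 3 highest mice. Prdx3 did not, with WT replicate 1 below WT replicate 2 and all LSD1-mKO mice. Summed over the 4, the level was 1040.5, 867 and 810.2 CPM in WT and 881, 981 and 1049 CPM in LSD1-mKO (exact permutation test, p = 0.4). The sum of 14 nuclear genes for mitochondrial proteins, among them citrate synthase and subunits of the respiratory chain, divided the mice in the same way: 18921, 15283 and 15298 CPM in WT and 15715, 17068 and 17840 CPM in LSD1-mKO. As a percentage of that sum, the 4 enzymes stood at 5.50%, 5.67% and 5.30% in WT and at 5.61%, 5.75% and 5.88% in LSD1-mKO. The means of 5.49% ± 0.187 and 5.75% ± 0.138 (SD, n = 3 each) came from overlapping values (exact permutation test, p = 0.2). The fibroblast sum ran the other way, with 1329, 3437 and 4395 CPM in WT and 2801, 1361 and 1488 CPM in LSD1-mKO, so that the 3 mice with the lowest fibroblast sum were those with the highest mitochondrial enzyme sum. These sums were compared after the levels had been seen, and the part of fibroblast RNA in them was not tested. In whole muscle, fewer cells of a type and less RNA per cell cannot be told apart.

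**Figure D3:**
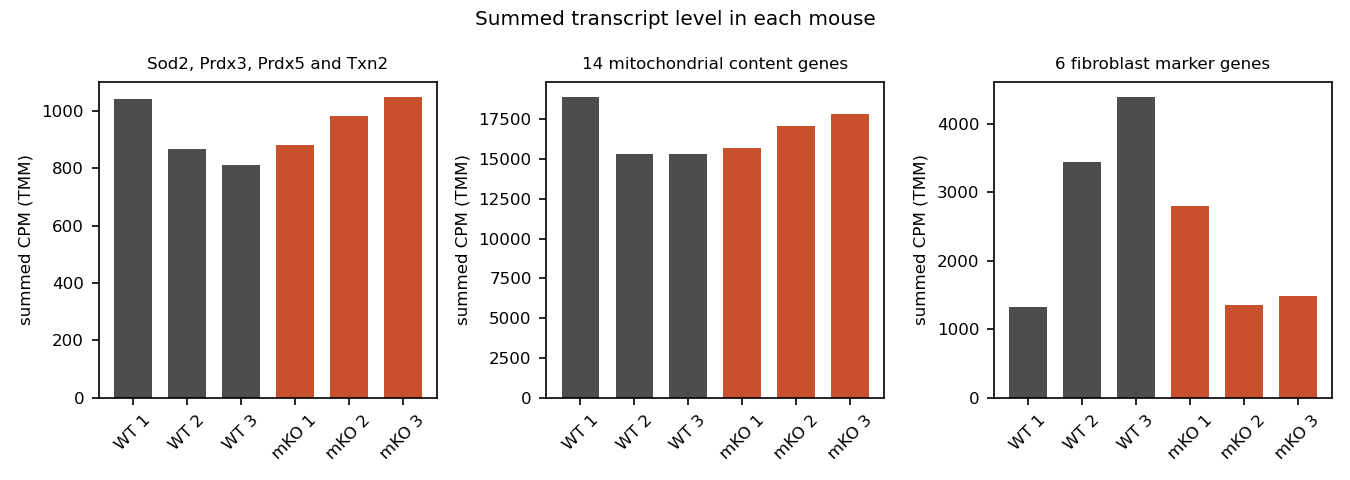
Summed CPM in each WT mouse (dark bars) and LSD1-mKO mouse (orange bars, labelled mKO) for Sod2, Prdx3, Prdx5 and Txn2 (left), for 14 genes for mitochondrial proteins (middle) and for 6 fibroblast markers (right), all axes from 0. WT 1, mKO 2 and mKO 3 are the highest in the left and middle panels and the lowest in the right panel.

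Without WT replicate 1, Prdx3, Txn2 and Cat reached unadjusted p-values of 0.0296, 0.0482 and 0.0427 in edgeR, with log2 fold changes of 0.23, 0.22 and 0.22. In that comparison 14.4% of all genes tested were at an unadjusted p under 0.05, and the lowest adjusted p among the 10 genes was 0.306, for Prdx3.

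Cat, which breaks down hydrogen peroxide in peroxisomes, had the largest positive fitted difference of the 10 genes. The gene (chromosome 2, 103453849 to 103485160, minus strand, 13 exons) was at 325, 297 and 294 CPM in WT and at 313, 358 and 362 CPM in LSD1-mKO. LSD1-mKO replicates 2 and 3 lay above all WT mice, but LSD1-mKO replicate 1 lay below WT replicate 1. The means were 305 ± 17.0 and 344 ± 27.2 CPM (SD, n = 3 each). The fitted fold difference of 1.13 had a 95% interval of 0.970 to 1.31, with an unadjusted p of 0.104 and an adjusted p of 0.777 (edgeR), and p = 0.2 in the exact permutation test.

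Gpx4 and Sod1 varied least over the 6 mice. Gpx4 (chromosome 10, 80047166 to 80056439, plus strand) was at 366, 373 and 365 CPM in WT and at 345, 384 and 362 CPM in LSD1-mKO, so that the highest mouse exceeded the lowest by a factor of 1.11. Its log2 fold change was -0.02 ± 0.08 with a 95% interval of -0.21 to 0.17, and the adjusted p was 0.974 (edgeR). Sod1 (chromosome 16, 90220754 to 90226329, plus strand) was at 185, 155 and 162 CPM in WT and at 175, 179.6 and 168 CPM in LSD1-mKO, and the WT values enclosed the LSD1-mKO values. The log2 fold change of Sod1 was 0.06 ± 0.09, with an interval of -0.15 to 0.27 and an adjusted p of 0.925 (edgeR). Sod1 shares 650 bases with Scaf4 on the opposite strand, a gene at 15.7 to 20.4 CPM.

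Gpx1, the glutathione peroxidase that most cells use against hydrogen peroxide in cytosol and mitochondria, had the lowest TPM of the cytosolic members. The gene (chromosome 9, 108338903 to 108340343, plus strand) was at 66.7, 62.4 and 68.9 CPM in WT and at 78.0, 61.4 and 63.3 CPM in LSD1-mKO. LSD1-mKO replicate 1 was the highest of the 6 mice and LSD1-mKO replicate 2 the lowest. Without LSD1-mKO replicate 1 the log2 fold change of Gpx1 turned from 0.03 to -0.08, and neither value passed the test (adjusted p = 0.959 and 0.858, edgeR).

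The extracellular enzymes varied most among WT mice. Gpx3, the peroxidase secreted into plasma (chromosome 11, 54902453 to 54910377, plus strand), was at 134, 124 and 233 CPM in WT and at 158, 139 and 112 CPM in LSD1-mKO. WT replicate 3 stood apart at the top, and the other WT mice lay within the LSD1-mKO range. The means were 164 ± 60.3 and 136 ± 22.9 CPM (SD, n = 3 each), with a log2 fold change of -0.26 ± 0.24, a 95% interval of -0.81 to 0.28 and an adjusted p of 0.865 (edgeR). Without WT replicate 3 the log2 fold change was 0.08 (adjusted p = 0.996, edgeR), so the lower fitted level of Gpx3 rested on that mouse. The fibroblast sum was highest in that mouse, at 4395 CPM, and its part in the Gpx3 level was not tested.

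Sod3 (chromosome 5, 52363791 to 52371418, plus strand) was at 24.0, 39.5 and 34.6 CPM in WT and at 36.0, 36.8 and 35.9 CPM in LSD1-mKO. The LSD1-mKO mice differed by a factor of 1.03 and the WT mice by a factor of 1.65, with WT replicate 1 the lowest of all. The log2 fold change was 0.14 ± 0.16 with a 95% interval of -0.23 to 0.51 (adjusted p = 0.890, edgeR), and it was -0.03 without WT replicate 1 (adjusted p = 0.902, edgeR). That mouse had the lowest fibroblast sum, 1329 CPM, and the part of fibroblast RNA in the Sod3 level was not tested.

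**Figure D4:**
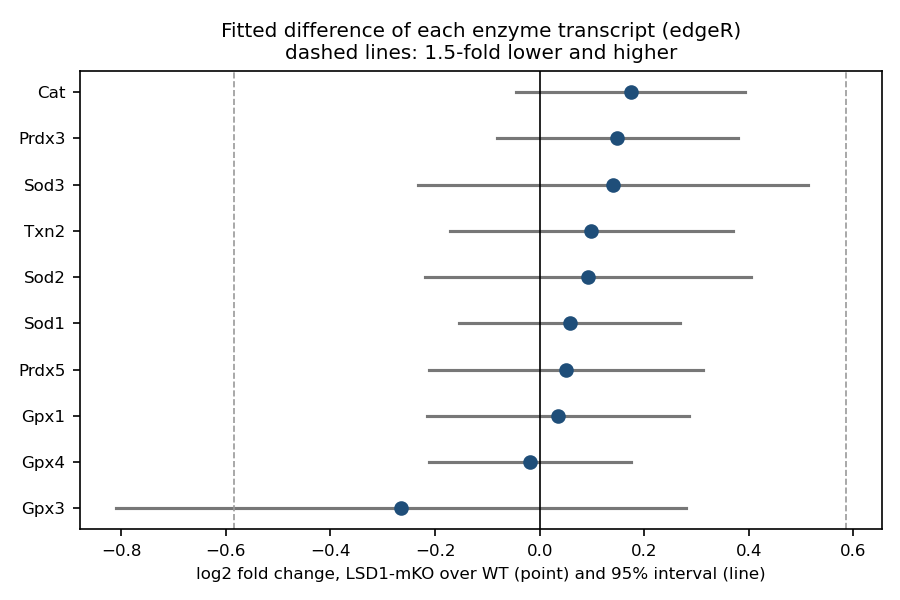
Fitted log2 fold change of each enzyme, LSD1-mKO over WT (points), with its 95% interval (lines), from edgeR's quasi-likelihood fit. The intervals of all 10 genes cross 0, and only that of Gpx3, from -0.81 to 0.28, reaches past the dashed line of a 1.5-fold difference.

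These intervals lay within 1.3-fold for 5 genes (Sod1, Gpx1, Gpx4, Prdx5 and Txn2), within 1.5-fold for 9 and within 2-fold for 10. The summed level of the 10 genes was 2009 ± 117 CPM in WT and 2093 ± 93.0 CPM in LSD1-mKO (SD, n = 3 each), a difference smaller than the spread (exact permutation test, p = 0.3). The range over mice was wider in WT than in LSD1-mKO for 7 of the 10 genes and for 60.9% of all genes tested.

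Genes with the nearest profile were sought for Gpx3 and Sod3, the members that varied most over the 6 mice, among 6286 genes at a mean of at least 20 CPM. For Gpx3 the root mean square difference of centred log2 CPM was smallest for Maged2 (0.167), Smyd2 (0.179) and Lrrn1 (0.181), against an SD of 0.371 for Gpx3 itself. Maged2 had its highest value in WT replicate 3, as Gpx3 did, at 63.2 CPM. For Sod3 it was smallest for Ephx1 (0.0614), Mdfic (0.0642) and Cul4b (0.0722), against an SD of 0.255. All 3 of these were lowest in WT replicate 1, with Ephx1 at 51.6 CPM there and at 67.5 to 81.8 CPM in the other mice. Such shared highest or lowest mice largely follow from choosing genes by nearest profile and are not a separate result.

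Beyond the 10 enzymes, 65 other genes of the same chemistry were listed: further dismutase, peroxiredoxin and glutathione peroxidase genes, the thioredoxin and glutaredoxin system, glutathione synthesis, selenoproteins and their synthesis, and sources of superoxide and peroxide. Of these, 56 were tested and 0 passed an adjusted p of 0.05 (edgeR), with 30 of 56 fitted higher in LSD1-mKO and a median log2 fold change of 0.02. At an unadjusted p under 0.05 there were 2 higher and 1 lower, beside 3.52% higher and 2.88% lower among all genes tested. For 5 of the 56 the values of the genotypes were fully separate, beside 12.7% of all genes tested.

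**Figure D5:**
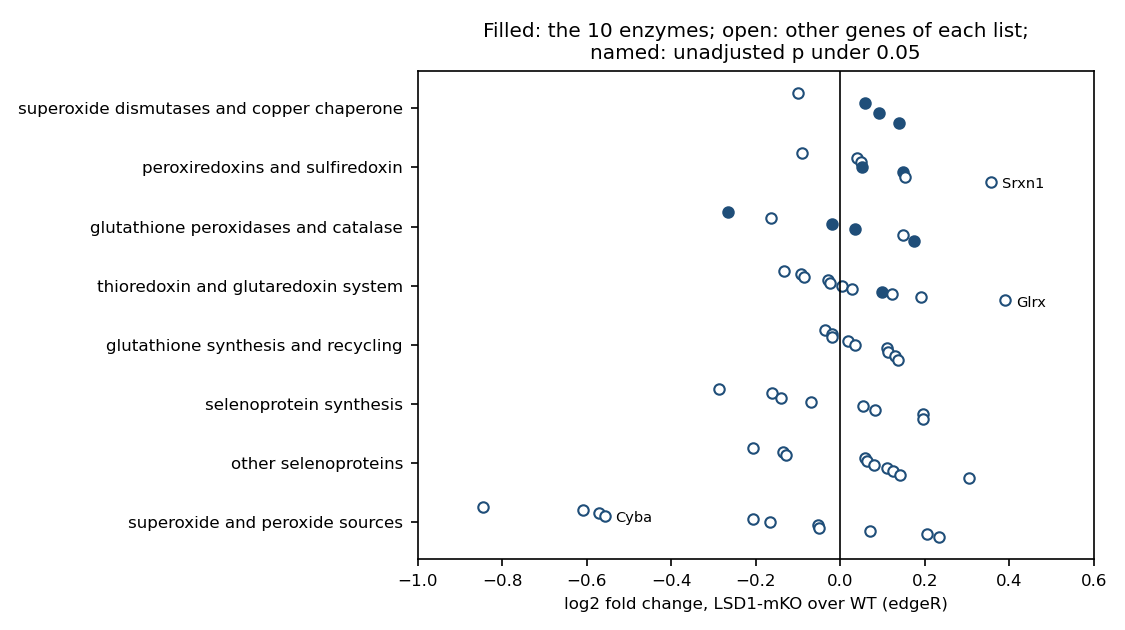
Log2 fold change, LSD1-mKO over WT (edgeR), of each tested gene by list, with the 10 enzymes filled and the other genes open. The filled points lie between -0.26 and 0.17, and the named genes Srxn1, Glrx and Cyba are those at an unadjusted p under 0.05, none of which passed adjustment.

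The 2 genes at the higher end, Srxn1 and Glrx, both act on oxidized thiols, but the medians of their lists were much smaller. Positive fits were 6 of 11 in the thioredoxin and glutaredoxin list, where the median log2 fold change was 0.005. In the list of peroxiredoxins and sulfiredoxin they were 6 of 7, and the median was 0.05. No common change of thiol genes is read from these 2. Srxn1, the sulfiredoxin that repairs overoxidized peroxiredoxins, was at 39.4, 40.5 and 33.7 CPM in WT and at 48.3, 49.7 and 47.4 CPM in LSD1-mKO, with every LSD1-mKO mouse above every WT mouse. Its log2 fold change was 0.36 ± 0.10 (unadjusted p = 0.00549, adjusted p = 0.556, edgeR). Glrx, the cytosolic glutaredoxin that removes glutathione from proteins, was at 19.9, 22.7 and 23.4 CPM in WT and at 33.6, 25.9 and 27.1 CPM in LSD1-mKO. The groups again did not overlap, and the log2 fold change was 0.39 ± 0.13 (unadjusted p = 0.0140, adjusted p = 0.660, edgeR). The partners of the mitochondrial enzymes had smaller differences: the log2 fold change was -0.03 for Txnrd2, the reductase of Txn2, and 0.11 for Nnt, which supplies NADPH to the matrix.

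Among the sources, 11 of 15 genes were tested, 3 of them were fitted higher and the median log2 fold change was -0.17. Cyba, a membrane subunit of the NADPH oxidases, was at 8.92, 16.7 and 12.4 CPM in WT and at 9.47, 8.11 and 8.47 CPM in LSD1-mKO. WT replicate 1 lay within the LSD1-mKO range, and the log2 fold change was -0.56 ± 0.22 (unadjusted p = 0.0332, adjusted p = 0.729, edgeR). Cybb and Ncf1, which encode other oxidase subunits, had log2 fold changes of -0.61 and -0.57, neither at an unadjusted p under 0.05. The sum of 6 macrophage and leukocyte markers was 81.0 to 266 CPM in WT and 85.4 to 165 CPM in LSD1-mKO, with 0 of the 5 tested markers fitted higher in LSD1-mKO, none of the 6 at 0 in all mice, and their part in the values of the oxidase genes was not tested.

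Of 8 transcription factors and coactivators tied to oxidative genes, 0 passed an adjusted p of 0.05 (edgeR). In this list 3 of 8 were fitted higher in LSD1-mKO, and the median log2 fold change was -0.035. Esrrg and Foxo3 were at an unadjusted p under 0.05, beside 6.4% of all genes tested, and are named here after their values were seen. Esrrg, which encodes ERRγ, was at 116 to 147 CPM in WT and 208 to 282 CPM in LSD1-mKO, with every LSD1-mKO mouse above every WT mouse. Its log2 fold change was 0.96 (unadjusted p = 0.000101, adjusted p = 0.162, edgeR). The paper reports Esrrg as significantly upregulated in Sol of trained LSD1-mKO mice, by RNA-seq and qRT-PCR, with more ERRγ protein. It used DESeq2 for this RNA-seq, so the adjusted p from edgeR is not a like comparison. Of all genes, DESeq2 called 33 higher here and edgeR 1, and no DESeq2 value of Esrrg is given. Foxo3 was at 18.3 to 26.0 CPM in WT and 15.4 to 18.2 CPM in LSD1-mKO, with a log2 fold change of -0.36 and an adjusted p of 0.766 (edgeR). Nfe2l2, which encodes the NRF2 factor that acts through antioxidant response elements, had a log2 fold change of -0.16 with overlapping groups.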

How the data were processed

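Poly(A) RNA from Sol of 3 WT and 3 LSD1-mKO mice was read as 75-base single-end reads, which the authors aligned to mm10 with STAR. The deposited table holds estimated counts per gene, not normalized, and the tool and annotation that made them are not given in the sources used here. A deposited DESeq2 comparison by the authors, with fold changes and p-values, was not used. The columns were assigned by the number in their heading, which opens each sample title. Estimated counts were rounded and fitted with edgeR 4.0.16 in R 4.3.3 (TMM, filterByExpr, quasi-likelihood test), with Benjamini-Hochberg adjustment over 12828 genes and a threshold of 0.05. The standard error was the log2 fold change divided by the square root of F. DESeq2 1.42.0 and limma 3.58.1 (voom) were alternatives, beside other normalizations, filters, a replicate block and each mouse left out. Scripts were tested on simulated data. TPM used GENCODE vM21 lengths (GRCm38), which covered 99.68% of counts. No rows lacked a gene name. Intervals cover the spread between these mice, and PCR-amplified reads are not independent molecules.

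Same-numbered WT and LSD1-mKO mice did not deviate together (correlations of deviations of -0.34, -0.12 and -0.16), so replicate numbers were not taken as pairs. No pair of libraries was as alike as repeated draws (chi-square per gene of at least 9.92). The members and lists were chosen with earlier results of these data known. The genes named are the 10 members, Kdm1a, listed genes past the adjusted threshold, scavenging, thiol, selenoprotein and source genes at an unadjusted p under 0.05, and the 3 nearest profiles for the 2 most variable members. Others were added after their values were seen, among them the list members given as partners or sources. Selenoprotein genes were found under older symbols, and Selenof was not in the table.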

Additional observations from a re-analysis of the deposited data

How the results depend on the processing

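In 14 alternative fits the count of the 10 enzymes past an adjusted p of 0.05 was 0 each time, with edgeR, DESeq2 and limma voom, and 133 of 140 gene comparisons kept their direction and side of the threshold. The other 7 changed sign, all in fits without 1 mouse. On the log2 scale, the fits without 1 mouse ran from -0.033 (without WT replicate 1) to 0.30 for Sod3, from -0.080 (without LSD1-mKO replicate 1) to 0.11 for Gpx1, which was also below 0 without WT replicate 2 (-0.0031), from -0.43 to 0.081 (without WT replicate 3) for Gpx3, from -0.025 (without WT replicate 3) to 0.17 for Prdx5, from -0.051 to 0.019 (without LSD1-mKO replicate 1) for Gpx4, and from -0.00089 (without LSD1-mKO replicate 3) to 0.22 for Sod2. The median of the 10 was 0.037 to 0.15 without 1 mouse and 0.058 to 0.090 otherwise. Of all genes, edgeR called 1 higher and 1 lower, DESeq2 33 and 9, limma voom 2 and 1, and edgeR without the filter 8 and 3. Without 1 mouse edgeR called 1 to 2 higher and 0 to 1 lower. Kdm1a was lower in each fit. Among the fits without 1 mouse, 4 lost its call, at an adjusted p of 0.111 to 0.209 (edgeR). These were the fits without WT replicate 2 or without LSD1-mKO replicate 1, 2 or 3. The replicate block, given below, also lost it. The cause of these shifts was not tested. The replicate block gave a median of 0.08 and called 1 gene higher and 0 lower, with Kdm1a at an adjusted p of 0.299, and it changed no call among the 10 genes. With the median transcript length the ratio of highest to lowest TPM was 41.2, and the mean TPM of 8 genes moved by more than the SD over mice. With 3 mice per genotype, the intervals of 5 of the 10 genes still held a difference of 1.3-fold.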
